A study of Homo sapiens with 4 samples.

Results

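The genes described here are the receptors and ligands of the epidermal growth factor (EGF) family together with the feedback inhibitor ERRFI1. They were taken by symbol: the receptors EGFR, ERBB2 and ERBB3, the ligands AREG, EREG, TGFA, HBEGF and BTC, and ERRFI1. All 9 were present among the 20510 genes of the expression table, and all 9 reached an FPKM (fragments scaled by transcript length and library total) of 1 in at least 2 libraries, the minimum for testing. The cells were the K1 line, a human line derived from papillary thyroid carcinoma, grown in medium with serum. They carried either a control short hairpin RNA (shCtrl, 2 libraries) or a hairpin against TBX3, a transcription factor of the T-box family that mostly represses its targets (shTBX3, 2 libraries). Every group thus carried a hairpin, and the labels do not say how the hairpins were delivered or whether the cells were clones. The series title concerns TBX3, proliferation and the repression of p57KIP2 by the Polycomb complex PRC2.

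EGF-family ligands are made as membrane-bound precursors and are released from the cell surface by ADAM proteases. They bind EGFR or the related receptors ERBB3 and ERBB4. ERBB2 has no known ligand of its own and is the preferred partner in receptor pairs, while ERBB3 has little kinase activity and couples strongly to PI3 kinase. Active receptor pairs signal through RAS and ERK and through PI3 kinase and AKT, and they induce feedback inhibitors such as ERRFI1 that bind and silence the receptors. In epithelial cancers, thyroid and intestinal tumours among them, this circuit is known as a driver of growth.

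The hairpin target itself was lower in the knockdown libraries. TBX3 had an FPKM of 48.94 and 54.77 in shCtrl and of 27.81 and 36.99 in shTBX3, so the groups did not overlap and the knockdown mean was 0.625 of the control mean. Its limma adjusted p over all genes was 0.428. In bulk RNA, a lower level per cell and fewer cells with the transcript cannot be told apart. The libraries held roughly 8260000 to 8460000 fragments each, as read from whole steps of the FPKM of microRNA genes. Of the thyroid markers reported, TG, TSHR, NKX2-1 and FOXE1 were at an FPKM of 0.31 or below in every library, PAX8 was at 1.88 or below, SLC5A5 between 2.42 and 3.28, DUOX2 between 0.15 and 5.54, SLC26A4 between 0.78 and 1.45 and DIO1 between 0.22 and 0.49. Of the 10 intestinal markers, CDX2 was between 116.78 and 147.75 in every library, CDH17 between 32.61 and 45.08, KRT20 between 18.30 and 36.21 and VIL1 between 8.86 and 12.12, while FABP1, GPA33, MUC2 and CDX1 were at 0.58 or below. PHGR1 differed between the groups, with 12.43 and 13.45 in the control and 0.83 and 1.09 in the knockdown libraries. LGALS4 had shCtrl values of 4.33 and 5.59 and shTBX3 values of 1.31 and 1.39, so its groups did not overlap either. CDH17, MUC2 and FABP1 were also lower in both shTBX3 libraries, MUC2 and FABP1 at levels below the minimum for testing. NKX2-1, likewise below that minimum, was higher in both. The thyroid marker DUOX2 had shCtrl values of 1.96 and 5.54 and shTBX3 values of 0.15 and 0.61. Its groups did not overlap, at a limma adjusted p of 0.374. The part of these markers in the results here was not tested. The values of the defining thyroid markers are thus low in libraries labelled as thyroid cancer, and the cells are called here by their label only.

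The receptors were expressed in the same order in all 4 libraries, with ERBB2 above ERBB3 and ERBB3 above EGFR. None of the 3 receptor genes passed the test between shTBX3 and shCtrl. Their levels differed more between the replicates of a group than between the groups. FPKM is scaled by transcript length, so levels of different genes can be set side by side.

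ERBB2, the partner receptor without a ligand, had an FPKM of 38.29 and 52.20 in shCtrl and of 30.54 and 44.89 in shTBX3. The shTBX3 replicate 2 value lay between the shCtrl values, so the groups overlapped. The means were 45.25 ± 9.84 and 37.72 ± 10.2 (SD, n = 2 each), with a log2 fold change of −0.27 ± 0.23 (SE) and a limma adjusted p of 0.931. The 95% interval of the ratio ran from 0.563 to 1.23 on the FPKM + 1 scale.

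ERBB3, the receptor that couples to PI3 kinase, had shCtrl values of 23.97 and 38.74 and shTBX3 values of 24.88 and 30.98. Both shTBX3 values lay inside the range of the shCtrl pair. The means were 31.36 ± 10.4 and 27.93 ± 4.31 (SD, n = 2 each), and the log2 fold change of −0.13 ± 0.24 (SE) had a limma adjusted p of 0.975 and a ratio interval from 0.607 to 1.375.

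EGFR, the receptor of AREG, EREG, TGFA, HBEGF and BTC, had the lowest level of the 3 receptors, with shCtrl values of 9.89 and 14.77 and shTBX3 values of 9.29 and 11.51. The groups overlapped at means of 12.3 ± 3.45 and 10.4 ± 1.57 (SD, n = 2 each), with a log2 fold change of −0.21 ± 0.22 (SE), a limma adjusted p of 0.941 and a ratio interval from 0.602 to 1.245. EGFR made up between 13.2% and 14.4% of the summed FPKM of the 3 receptors in every library, so its share was nearly constant while the sum itself ran from 64.71 to 105.71.

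In both groups the replicate 2 library was the higher for every receptor. Within shCtrl the ratio of replicate 2 to replicate 1 was 1.49 for EGFR, 1.36 for ERBB2 and 1.62 for ERBB3. Within shTBX3 it was 1.24, 1.47 and 1.245 in the same order. Leaving out single libraries turned the direction of the difference between the groups for each receptor. The log2 fold change of EGFR ran from −0.475 to 0.06, reaching the positive value without shCtrl replicate 2. For ERBB2 it ran from −0.54 to 0.01, positive without shTBX3 replicate 1. For ERBB3 it ran from −0.47 to 0.20, positive without shCtrl replicate 2 (0.20) and without shTBX3 replicate 1 (0.02).

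**Figure D1:**
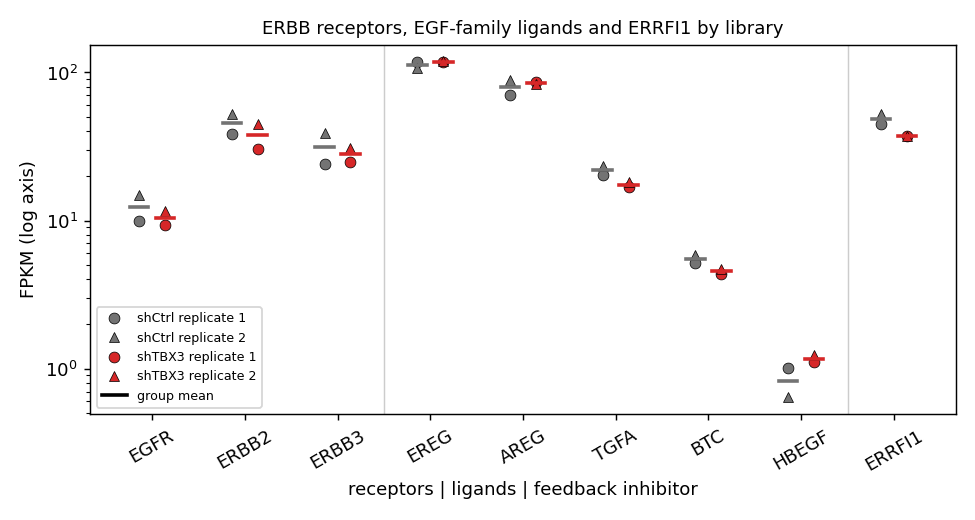
FPKM (log axis) of the 9 genes by library, with shCtrl in grey and shTBX3 in red; circles are replicate 1, triangles replicate 2 and bars group means. EREG and AREG lie highest in every library, HBEGF lies between 0.64 and 1.24, and for the receptors the replicate 2 libraries lie above the replicate 1 libraries in both groups.

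ERBB2 varied most among the 9 genes, with a range of 0.75 on the log2(FPKM + 1) scale. The 3 genes with the most similar pattern over the 4 libraries, by the Euclidean distance of their mean-centred log2 values, were TMEM219 (distance 0.023), GALT (0.025) and ARHGEF10L (0.032). TMEM219, for example, had shCtrl values of 26.74 and 36.21 and shTBX3 values of 21.35 and 31.83. Among 9307 genes compared, 236 lay within a distance of 0.2, so with 4 libraries this pattern is shared by many genes. GRB7, an adaptor of ERBB receptors, had shCtrl values of 18.23 and 27.76 and shTBX3 values of 12.04 and 25.49. It was not among the 3 most similar genes, its distance is not reported, and it is named after its values were seen.

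The ligands spanned a much wider range than the receptors, and their order was also the same in all 4 libraries: EREG, AREG, TGFA, BTC and HBEGF. EREG and AREG, ligands of low affinity for EGFR, together dominated the summed ligand FPKM. None of the 5 ligand genes passed the test between the groups. The summed ligand FPKM was 214.26 and 226.68 in shCtrl and 226.63 and 227.08 in shTBX3, a spread far smaller than that of the receptors.

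EREG, AREG and BTC lie in a cluster of ligand genes on chromosome 4, with EPGN, which encodes the related ligand epigen, at its edge. In GRCh37 EREG spans 75230862 to 75254466, AREG 75310853 to 75320722 and EPGN 75174187 to 75182506, all on the plus strand, and BTC spans 75669969 to 75719733 on the minus strand. Measured in GRCh37 from the start site of EREG, those of EPGN, AREG and BTC lie at −56.7, 80.0 and 488.9 kb. Distances in GRCh38 were not computed. The neighbours differed widely in level. Their upstream sequences are shown because the cluster holds the 2 highest ligands beside a low one, and because BTC and the feedback inhibitor ERRFI1 were among the genes with the lower value in both shTBX3 libraries. TGFA was also lower in both shTBX3 libraries, but its upstream sequence is not printed. Each sequence is the 250 bases before the start site in RefSeq's GRCh38.p14 annotation, on the gene's strand, with matches to the motifs listed after the sequences in capitals: EREG at chr4:74364895-74365144 (plus strand), AREG at chr4:74444886-74445135 (plus), BTC at chr4:74794524-74794773 (minus) and ERRFI1 at chr1:8026310-8026559 (minus).
EREG: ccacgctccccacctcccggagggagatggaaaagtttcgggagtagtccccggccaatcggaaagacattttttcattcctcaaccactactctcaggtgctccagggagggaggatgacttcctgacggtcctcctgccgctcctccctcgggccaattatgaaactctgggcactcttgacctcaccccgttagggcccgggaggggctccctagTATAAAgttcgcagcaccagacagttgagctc
AREG: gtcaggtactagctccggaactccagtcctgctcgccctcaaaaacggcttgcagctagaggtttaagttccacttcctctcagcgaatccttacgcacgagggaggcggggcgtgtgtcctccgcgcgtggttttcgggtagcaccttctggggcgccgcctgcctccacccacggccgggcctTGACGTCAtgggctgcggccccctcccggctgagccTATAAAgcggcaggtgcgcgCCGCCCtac
BTC: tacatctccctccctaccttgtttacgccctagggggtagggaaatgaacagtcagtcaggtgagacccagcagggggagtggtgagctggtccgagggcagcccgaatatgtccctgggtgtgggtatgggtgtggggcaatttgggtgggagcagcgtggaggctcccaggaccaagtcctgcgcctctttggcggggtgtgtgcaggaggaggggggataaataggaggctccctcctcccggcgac
ERRFI1: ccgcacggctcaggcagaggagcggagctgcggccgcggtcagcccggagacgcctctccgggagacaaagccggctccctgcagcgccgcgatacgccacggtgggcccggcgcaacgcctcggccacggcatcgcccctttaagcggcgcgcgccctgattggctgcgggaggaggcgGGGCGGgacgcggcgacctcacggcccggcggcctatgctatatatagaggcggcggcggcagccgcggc

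The motifs were searched as exact letters on both strands in 35116 upstream windows of 250 bases, and 8 of the 9 genes had such a window (ERBB3 did not). EGFR and TGFA each had a second window, and a gene was counted if any of its windows held the motif. The percentages count single windows, so they are not directly comparable with the counts of genes. The core of the TATA box, TATAAA, was found in EREG, where it begins 32 bases before the start site, in AREG, where it begins 29 bases before it, and in a second start site of EGFR. It occurs in 10.7% of all windows. The cyclic AMP response element TGACGTCA was found in AREG alone of the 8 genes, beginning 65 bases before the start, and in 1.65% of all windows. The GC box core GGGCGG was found in 5 of the 8 genes (EGFR, AREG, TGFA, HBEGF and ERRFI1) and in 42.6% of all windows. The AP-1 site TGACTCA (4.20% of windows) was found in EGFR, only before the same second start site that has the TATA box core. The T-box half-site GGTGTGA (2.76% of windows) had no match in the 8 genes, which says only that these letters are not in these windows. The motifs do not overlap one another in the printed sequences.

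EREG, which encodes epiregulin, a ligand of EGFR and ERBB4, was the most abundant of the 9 genes. Its shCtrl values were 117.51 and 107.78 and its shTBX3 values 118.10 and 118.75. Both shTBX3 values lay above both shCtrl values, but the highest shCtrl value was within 1 FPKM of the lowest shTBX3 value. The means were 112.6 ± 6.88 and 118.4 ± 0.460 (SD, n = 2 each), with a log2 fold change of 0.07 ± 0.12 (SE) and a limma adjusted p of 0.971. The ratio interval ran from 0.862 to 1.28, the narrowest of the 9 genes. With 1 library left out at a time, that fold change lay between 0.01 and 0.13. The table lists 1 RefSeq transcript for EREG, and with the GENCODE length of 4615 nucleotides the gene rested on roughly 4127 to 4600 fragments per library, for a counting error of at most 1.56%. EREG ranked 580th of the 13924 genes tested by mean FPKM.

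AREG, which encodes amphiregulin, a ligand of EGFR alone, was second. Its shCtrl values were 70.10 and 89.05 and its shTBX3 values 86.26 and 84.24, so both shTBX3 values fell between the shCtrl values. The means were 79.6 ± 13.4 and 85.25 ± 1.43 (SD, n = 2 each), and the log2 fold change of 0.11 ± 0.15 (SE) had a limma adjusted p of 0.965 and a ratio interval from 0.836 to 1.39. It changed sign without shCtrl replicate 1 (−0.06). In the GRCh37 assembly AREG has a near copy, AREGB, at 75480629 to 75490486 on the same strand, and 95.8% of the 50-base windows of the AREG transcript occur unchanged in that of AREGB. The table lists AREG alone, and how fragments that match both copies were assigned is not stated, so the AREG level is uncertain. Whether the 2 copies are separate loci in these cells was not tested. The level of EREG was 1.21 to 1.68 times that of AREG across the libraries.

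EPGN, the neighbour of EREG, had shCtrl values of 0.50 and 0.34 and shTBX3 values of 0.71 and 0.37, below the minimum for testing. BTC, which encodes betacellulin, a ligand of EGFR and ERBB4, had shCtrl values of 5.18 and 5.83 and shTBX3 values of 4.37 and 4.70. The shTBX3 pair of BTC lay below the shCtrl pair. The BTC means were 5.505 ± 0.460 and 4.535 ± 0.233 (SD, n = 2 each), with a log2 fold change of −0.23 ± 0.15 (SE) and a limma adjusted p of 0.891.

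**Figure D2:**
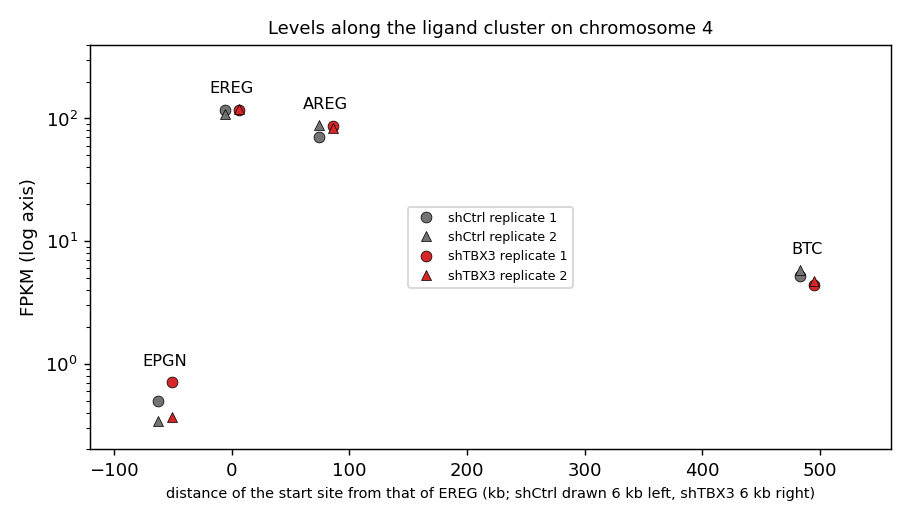
FPKM (log axis) of EPGN, EREG, AREG and BTC against the distance of their start sites from that of EREG in GRCh37, in kb. Points are the 2 shCtrl (grey) and 2 shTBX3 (red) libraries, with shCtrl drawn 6 kb to the left and shTBX3 6 kb to the right of the GRCh37 position. EREG and AREG lie between 70.10 and 118.75, while EPGN lies at 0.71 or below and BTC between 4.37 and 5.83.

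TGFA, which encodes transforming growth factor alpha, a ligand of EGFR, had an FPKM of 20.46 and 23.38 in shCtrl and of 16.80 and 18.15 in shTBX3. The shTBX3 pair lay below the shCtrl pair. The shCtrl mean was 21.92 ± 2.07 and the shTBX3 mean 17.48 ± 0.955 (SD, n = 2 each), and the ratio was 0.797, with a log2 fold change of −0.31 ± 0.14 (SE) and a limma adjusted p of 0.782. The share of TGFA in the summed ligand FPKM was 9.55% and 10.3% in shCtrl and 7.41% and 7.99% in shTBX3, so the shares did not overlap either. As the sum varied little, this share largely restates the TGFA values. The shares of BTC and HBEGF did not overlap between the groups either, while those of AREG and EREG did.

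HBEGF, which encodes heparin-binding EGF-like growth factor, a ligand of EGFR and ERBB4, was the scarcest of the 9. Its shCtrl values were 1.01 and 0.64 and its shTBX3 values 1.10 and 1.24, so the shTBX3 pair lay above the shCtrl pair. The means were 0.825 ± 0.262 and 1.17 ± 0.0990 (SD, n = 2 each) and their ratio was 1.42, with a log2 fold change of 0.26 ± 0.22 (SE) and a limma adjusted p of 0.926. These levels rest on roughly 19, 12, 21 and 24 fragments in the same order, and the 95% Poisson intervals of these counts overlap (11.4 to 29.7 and 6.20 to 21.0 in shCtrl, 13.0 to 32.1 and 15.4 to 35.7 in shTBX3). Such intervals cover counting error only. With 1 library left out at a time, the HBEGF log2 fold change lay between 0.11 and 0.40, and it was 0.48 with a pseudocount of 0.1 and 0.08 with a pseudocount of 5.

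ERRFI1, the feedback inhibitor of the ERBB kinases also known as MIG6, showed the smallest p among the 9 genes and still did not pass over all genes. Its shCtrl values were 44.92 and 52.13 and its shTBX3 values 37.11 and 37.30. The shTBX3 pair lay below the shCtrl pair, and its members were nearly equal. The shCtrl mean was 48.53 ± 5.10 and the shTBX3 mean 37.2 ± 0.134 (SD, n = 2 each), and the ratio was 0.767, with a log2 fold change of −0.37 ± 0.13 (SE). The limma p of ERRFI1 was 0.0302 before adjustment and 0.658 after it. The gene rested on roughly 953 to 1334 fragments per library, so its counting error was at most 3.24%.

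By mean level over the 4 libraries the 9 genes ran from EREG (115.5) through AREG (82.4), ERRFI1 (42.9), ERBB2 (41.5), ERBB3 (29.6), TGFA (19.7), EGFR (11.4) and BTC (5.02) to HBEGF (0.998). Only ERRFI1 with ERBB2, and ERBB2 with ERBB3, had overlapping ranges among the neighbours in this order. ERBB2 was nevertheless above ERBB3 within each of the 4 libraries, whereas ERRFI1 was above ERBB2 in 2 of 4. The ratio of the summed ligand to the summed receptor FPKM was 2.97 and 2.14 in shCtrl and 3.50 and 2.60 in shTBX3, and these groups overlapped.

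So few of the 13924 genes tested were called that the number of calls cannot show whether the 9 genes stand out. Limma called 0 of the 9 at an adjusted p of 0.05, where it called 0.180% of all genes, and 1 of the 9 (ERRFI1) had an unadjusted p under 0.05, against 6.67% of all genes. The alternative settings of limma also called 0 of the 9. Both shTBX3 libraries lay below both shCtrl libraries for 3 of the 9 genes (TGFA, BTC and ERRFI1), against 19.7% of all genes. Both lay above for 2 of the 9 (EREG and HBEGF), against 14.8%. The remaining 4 overlapped. HBEGF would not have reached the minimum for testing from the shCtrl libraries alone, with 0.64 in shCtrl replicate 2. Its place among the higher genes is thus not independent of the filter. Of the 9 log2 fold changes 6 were negative and 3 positive, with a median of −0.21, where the median over all genes was −0.01 and 53.1% of genes were negative. Whether the replicates were separate cultures is not stated in the labels, so the p-values reflect the spread among these 4 libraries alone, and that spread may be technical.

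**Figure D3:**
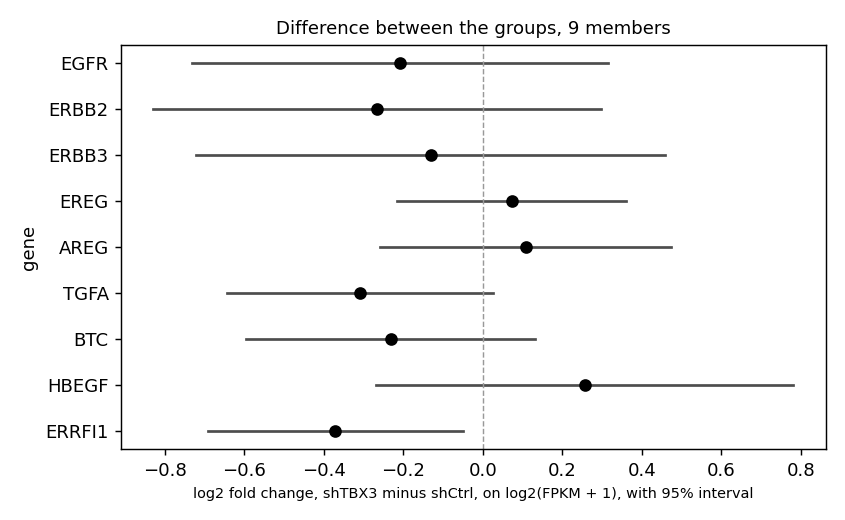
Log2 fold change of shTBX3 against shCtrl on the log2(FPKM + 1) scale for the 9 genes; points are limma estimates and lines their 95% intervals without adjustment for the number of genes. ERRFI1 is the 1 gene whose interval, from −0.69 to −0.05, does not include 0, and EREG has the narrowest interval, from −0.21 to 0.36.

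The remaining genes of the receptor and ligand family were scarce. EGF itself had shCtrl values of 0.24 and 0.16 and shTBX3 values of 0.21 and 0.26. NRG4, a neuregulin that binds ERBB4, was between 0.22 and 0.55. NRG1 and NRG2, which encode neuregulins that bind ERBB3 and ERBB4, were listed at 0 in 3 libraries and at 0.07 and 0.03 in shTBX3 replicate 2. None of the 5 other family genes present reached the minimum for testing, and ERBB4 and NRG3 were not analysed here. Within the family, the abundant ligands were thus ligands of EGFR, while the neuregulins measured were near 0.

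Around these genes, 4 lists of pathway genes held 82 members that could be tested, and limma called 0 of the 82 at an adjusted p of 0.05, against 0.180% of all genes, with 6 at an unadjusted p under 0.05, against 6.67% of all genes. Of the 82, 36 log2 fold changes were positive and 46 negative, with a median of −0.03. The shTBX3 pair lay below the shCtrl pair for 19 of the 82, against 19.7% of all genes, and above it for 13, against 14.8%.

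Of the genes that shed or traffic the ligand precursors, 8 were tested, 4 with positive and 4 with negative log2 fold changes (median −0.01). FRMD8, a partner of the iRhom proteins that guide ADAM17 to the cell surface, had shCtrl values of 15.62 and 15.39 and shTBX3 values of 12.73 and 12.25 (limma adjusted p = 0.776). ADAM10, the main sheddase of BTC, stood at 23.68 and 27.24 against 20.52 and 20.76 (limma adjusted p = 0.812). ADAM17, the main sheddase of AREG, EREG, TGFA and HBEGF, stood at 7.71 and 9.71 against 10.60 and 9.90 (limma adjusted p = 0.913). FRMD8 and ADAM10 were thus lower and ADAM17 higher in both shTBX3 libraries, with no difference past the threshold.

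Adaptors and signal transducers formed the largest list, with 34 members tested, 11 positive and 23 negative, and a median log2 fold change of −0.09. PIK3R1, which encodes the p85 alpha regulatory subunit of PI3 kinase, had the smallest p of all 82 genes. Its shCtrl values were 3.63 and 3.69 and its shTBX3 values 1.75 and 1.86, a ratio of 0.493, with a log2 fold change of −0.73 ± 0.16 (SE) and a limma adjusted p of 0.320. STAT5A, a transcription factor activated by cytokine and growth factor receptors, was at 4.80 and 5.03 against 2.86 and 2.72 (ratio 0.568, log2 fold change −0.64 ± 0.15, limma adjusted p = 0.372). Its close relative STAT5B was at 10.18 and 12.17 against 8.08 and 8.50 (limma adjusted p = 0.702). In these 3 genes the shTBX3 values lay wholly below the shCtrl values, and for PIK3R1 and STAT5A the gap between the groups was far wider than the spread within them.

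Among genes that restrain the receptors or take them into endosomes, 19 were tested, 7 positive and 12 negative (median −0.03). PTPRJ, a receptor-type phosphatase that acts on EGFR, had shCtrl values of 6.80 and 9.55 and shTBX3 values of 5.37 and 5.73 (limma adjusted p = 0.721). LRIG3, a transmembrane protein related to the ERBB inhibitor LRIG1, was at 2.42 and 3.52 against 4.48 and 3.90 (limma adjusted p = 0.818). EPS15, an endocytic adaptor first found as a substrate of EGFR, was at 5.01 and 6.12 against 6.75 and 7.01 (limma adjusted p = 0.867). LRIG1 itself was below the minimum for testing, with shCtrl values of 0.25 and 0.41 and shTBX3 values of 0.99 and 1.85. When every gene above 0 was tested, its log2 fold change was 0.84 ± 0.22 (SE), at a limma adjusted p of 0.713; LRIG1 is named after its values were seen.

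Of the transcriptional targets and feedback genes of ERK, 21 were tested, 14 positive and 7 negative, with a median log2 fold change of 0.08. EPHA2, a receptor tyrosine kinase induced by ERK, had shCtrl values of 27.63 and 24.21 and shTBX3 values of 37.95 and 33.83 (ratio 1.385, log2 fold change 0.46 ± 0.14, limma adjusted p = 0.550). FOSL1, the AP-1 subunit FRA-1, stood at 45.51 and 36.49 against 57.72 and 55.30 (ratio 1.38, limma adjusted p = 0.581). DUSP4, a nuclear phosphatase of ERK, stood at 2.13 and 2.08 against 1.18 and 1.43 (ratio 0.620, limma adjusted p = 0.763). EPHA2 and FOSL1 were thus higher and DUSP4 lower in both shTBX3 libraries, and 17 of the 21 genes overlapped between the groups, against 65.4% of all genes.

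**Figure D4:**
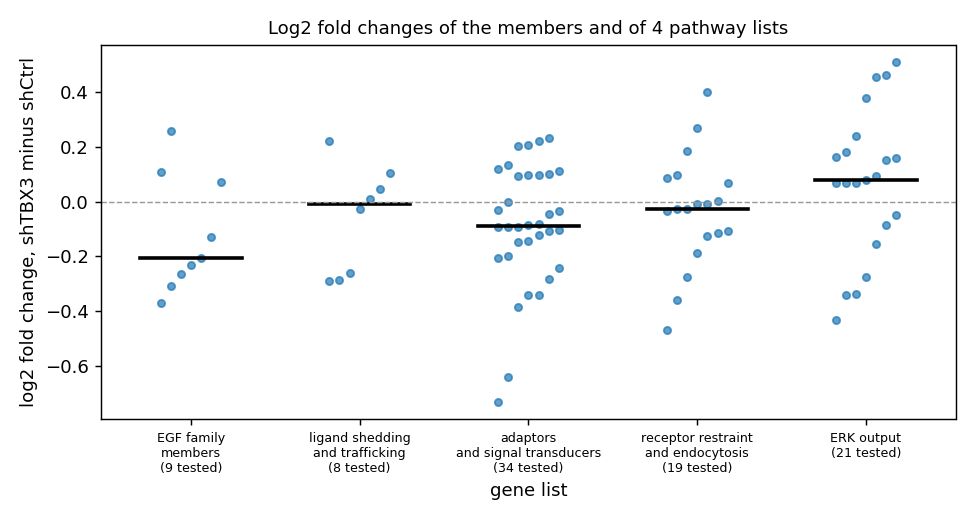
Log2 fold change of shTBX3 against shCtrl for the 9 genes and for the tested members of 4 pathway lists; each point is a gene, its sideways position carries no meaning, and bars are medians. The medians run from −0.21 for the 9 genes to 0.08 for ERK output, and the lowest points are PIK3R1 (−0.73) and STAT5A (−0.64).

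In GRCh37, the remaining genes lie apart from the chromosome 4 cluster. EGFR spans 55086710 to 55279321 on chromosome 7, ERBB2 37844167 to 37886679 on chromosome 17 and ERBB3 56470583 to 56497289 on chromosome 12, all on the plus strand. TGFA spans 70674416 to 70781325 on chromosome 2, HBEGF 139712428 to 139726188 on chromosome 5 and ERRFI1 8064464 to 8086369 on chromosome 1, all on the minus strand.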

How the data were processed

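The 4 libraries of K1 RNA were read on a BGISEQ-500 instrument, per the labels. The authors deposited FPKM per gene for the 4 libraries, per the file headers. Tools and build named in the submitters' processing notes, with no version or role, are RSEM, HISAT, Bowtie2 and hg19. Strandedness is not given in the sources used here, so a gene and an antisense partner cannot be told apart.

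FPKM are not counts, so limma 3.58.1 (R 4.3.3; lmFit, then trended eBayes) was run on log2(FPKM + 1). It covered the 13924 genes that reached an FPKM of 1 in 2 or more libraries, two-sided, with Benjamini-Hochberg adjustment over all of them and a threshold of 0.05. Fold changes on this scale understate changes of low genes, while ratios were taken from mean FPKM. The SE, intervals and p-values rest on a variance that eBayes drew toward that of other genes of like level. They are thus not the spread of 1 gene alone: the prior had 4.11 degrees of freedom, against 2 residual ones. The fit was tested on simulated data. No pair of libraries shared identical values in more than 0.56% of these genes.

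Fragments per library were fitted, with an offset on the length, to microRNA genes holding no more than 6 fragments, whose FPKM values were whole multiples of 1 fragment, within 0.05 fragments, in 75.0% to 84.9% of cases. Lengths and coordinates are from GENCODE release 44 on GRCh37, upstream sequences from RefSeq on GRCh38.p14. Python 3.11.15, numpy 2.4.6, pandas 2.3.3, scipy 1.17.1 and matplotlib 3.10.9 were used.

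The 9 genes and the pathway and marker lists were chosen with earlier results of these data known, so lists are described by counts and medians and not tested. A thyroid marker of the list is not reported here. The rule for named genes took the 9 genes, TBX3, the other family genes, for each pathway list the called genes or else the 3 with the smallest p, and the 3 genes most like the most variable of the 9 with a mean FPKM of at least 5. As alternatives the pseudocount, the filter and the scaling were varied, eBayes was run untrended or robust, the replicate number was added as a block, and each library was left out.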

Additional observations from a re-analysis of the deposited data

How the results depend on the processing

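Among the 9 genes and among the pathway genes, limma called 0 under all 13 alternatives. Over all genes the count of 25 became 7 with a pseudocount of 0.1, 0 when every gene above 0 was tested (1249 at an unadjusted p under 0.05), and 12 to 55 as single libraries were left out. Of 320 values of single named genes under the alternatives, 0 passed the threshold and 7 changed sign, all of them with a library left out. The log2 fold changes then ran from −0.0623 to 0.28 for AREG, −0.475 to 0.0592 for EGFR, −0.54 to 0.0054 for ERBB2, −0.47 to 0.20 for ERBB3 (0.0218 without shTBX3 replicate 1), −0.52 to 0.0312 for TMEM219 and −0.52 to 0.0305 for GALT, and the cause was not tested. A lone library left in a group is assumed to vary like the other group. The replicate numbers are not said to pair the libraries, and the deviations of same-numbered libraries correlated at 0.26 across genes. With the replicate block limma called 132 genes, 34 higher and 98 lower, and an unadjusted p under 0.05 was found for 3 of the 9 genes against 1 without it, and for 14.3% of all genes against 6.67%. The adjusted p was then 0.199 for ERRFI1, 0.256 for TGFA and 0.292 for ERBB2. HBEGF was not tested with a minimum FPKM of 5. HBEGF rested on roughly 12 to 24 fragments per library.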
